A study of Oryctolagus cuniculus with 16 samples.

Results

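The respiratory chain genes described here are 54 of the 13001 named genes counted in the rabbit vagina. They were picked by symbol, with earlier results of these data known. The nuclear part holds 41 genes whose symbols start with NDUFA, NDUFB, NDUFC, NDUFS or NDUFV and a number, with UQCR, with COX4 to COX8 or with ATP5, or are SDHA, SDHB, SDHC or SDHD. The mitochondrial part holds the 13 protein genes of mitochondrial DNA. In RefSeq, 84 rabbit symbols match the nuclear patterns, and 41 of them had a row in the table. The other 43, among them NDUFV1, SDHD, UQCRC2, COX6A1, NDUFA4 and ATP5F1A, were not analysed here. All 54 members passed the filter on low counts and were among the 10942 genes tested.

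The animals, all female rabbits of the New Zealand White breed, were 17 to 19 weeks old, and 16 libraries were made from poly(A) RNA of the vagina. The control group was native vagina without surgery (n = 6, animals 2, 9, 16, 24, 25 and 29). The sham group had sham surgery (n = 3, animals 11, 12 and 14). The acellular group had a graft without particles (n = 3, animals 6, 8 and 10), and the PLATE group had a graft carrying tissue particles (n = 4, animals 1, 5, 9 and 13). Tissue of the acellular and PLATE groups came from a site at 10 mm to the graft. No distance is labelled for control and sham, so site and graft cannot be told apart in comparisons with them. The number 9 occurs in control and in PLATE, and the labels do not say whether it is the same animal.

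The respiratory chain passes electrons from complexes I and II through III to IV and pumps protons, and complex V, the ATP synthase, uses the proton gradient to make ATP. Complex II is wholly nuclear-encoded, and the other complexes join nuclear subunits to subunits read from mitochondrial DNA. The nuclear subunits are transcribed gene by gene, whereas the mitochondrial genes are read as long RNAs that are cut into pieces. Muscle cells are rich in the chain, and the vaginal wall holds smooth muscle beneath its epithelium. Complex I was represented by 23 nuclear and 7 mitochondrial genes, complex II by 3 nuclear genes, and complex III by 2 nuclear genes and 1 mitochondrial gene. Complex IV was represented by 6 and 3, and complex V by 7 and 2.

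A library totalled between 20992063 and 30695000 counts, and its named genes took 15348880 to 23236339 of them. Levels are given in CPM, counts normalised to library size with the TMM scaling factor of edgeR. The scaling factor was 0.592 in control 2 and 0.917 to 1.15 in the other 15 libraries, so levels in control 2 stand higher as CPM than as a share of counts. Summed smooth muscle markers (6 of 8 measured) ran from 9095 CPM in control 9 to 156500 CPM in control 2, with 36950 to 62760 CPM in sham, 13210 to 17910 CPM in acellular and 28990 to 47600 CPM in PLATE. Summed columnar epithelium markers (6 of 8) were lowest in control 2 at 15.4 CPM and reached 1321 CPM in another control library. Summed neutrophil markers (4 of 4) were 4846 CPM in PLATE 1 and at most 481 CPM elsewhere. PLATE 1 also had the highest sums for B and plasma cells (36060 CPM), macrophages (1072 CPM) and endothelium (1116 CPM). The same held for T and NK cells (29.4 CPM) and the cell cycle (172.8 CPM). Single markers of these lists did not all peak there. PECAM1 (685 CPM), CD68, CSF1R, IGHM, CD79B, MS4A1, CD2, TOP2A and CDK1 were highest in PLATE 1. VWF (303 CPM in PLATE 1), CDH5, KDR and TEK were higher in other libraries. So were CD163 (56.8 CPM in PLATE 1), MRC1 (256 CPM), C1QA (23.2 CPM), JCHAIN (4670 CPM) and NKG7 (2.91 CPM). In bulk tissue, fewer cells of a type and less RNA per cell cannot be told apart, and this holds for every level below.

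Mitochondrial genes took a large and variable share of the counts, and nuclear genes a small and steadier one. The mitochondrial share of named-gene counts was 26.0% in control 2, 8.92% in control 9, 15.7% in control 16, 11.4% in control 24, 12.5% in control 25 and 12.9% in control 29. In sham 11, 12 and 14 the mitochondrial share was 9.92%, 12.6% and 9.53%. In acellular 6, 8 and 10 it was 13.1%, 18.1% and 12.9%, and in PLATE 1, 5, 9 and 13 it was 12.4%, 12.2%, 14.4% and 10.3%. Control 2 lay far above all other libraries, acellular 8 came second and control 9 was lowest. The nuclear share was between 0.570% (acellular 6) and 0.920% (control 25), with PLATE 1 second at 0.817% and control 2 at 0.693%. At these depths the 95% Wilson intervals reach at most 0.02 percentage points from a mitochondrial share and 0.0043 from a nuclear one, for counting error only.

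The ratio of mitochondrial to nuclear counts needs no scaling between libraries. It averaged 21.0 ± 9.18 in control (SD, n = 6; lowest 13.6, median 18.1, highest 37.6), 16.6 ± 2.92 in sham (n = 3), 23.6 ± 5.39 in acellular (n = 3) and 17.9 ± 3.66 in PLATE (n = 4). The ratio was 14.8 in sham 14 and 19.9 in sham 12, with sham 11 close to sham 14, and it was 22.9, 29.3 and 18.5 in acellular 6, 8 and 10, and 15.1, 18.6, 22.9 and 15.2 in PLATE 1, 5, 9 and 13. Every pair of groups overlapped, and the control range held all other libraries.

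**Figure D1:**
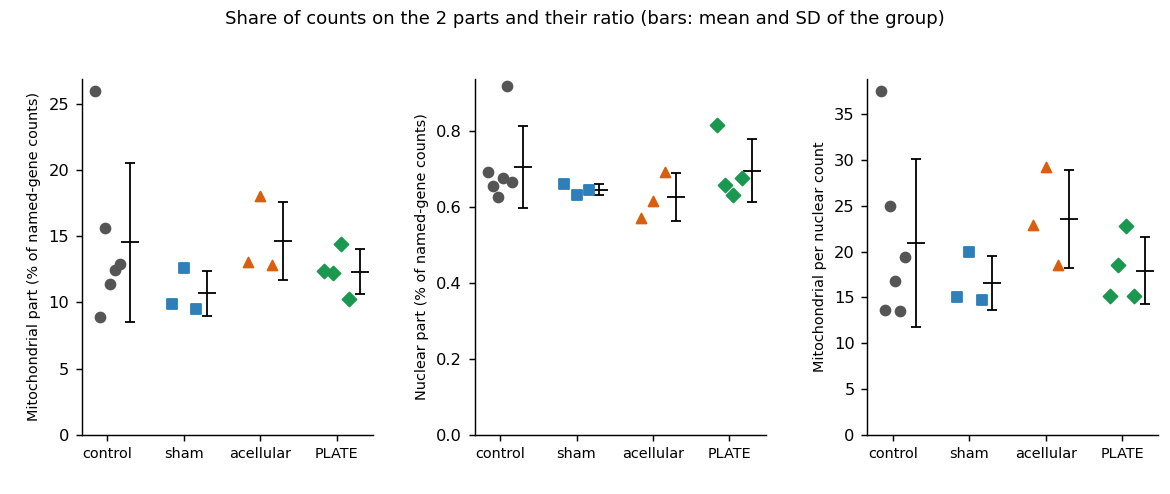
Share of named-gene counts on the 13 mitochondrial genes (left, %), on the 41 nuclear genes (middle, %) and their ratio (right) by group; each point is a library and the bar is the mean with its SD (n = 6, 3, 3 and 4). Control 2 stands alone at a mitochondrial share of 26.0%, and control 25 is highest for the nuclear share at 0.920%.

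On the CPM scale and apart from control 2, the 2 parts were not high in the same libraries. For each gene the deviation of a library from the gene's median over all 16 libraries was taken on the log2 CPM scale, and the median over a part summarises that part. The nuclear median deviation was 0.80 in control 2, 0.61 in control 25 and 0.53 in PLATE 1, and it was -0.42 in acellular 6. The other 12 libraries lay between -0.13 and 0.06. The mitochondrial median deviation was 2.06 in control 2, 0.65 in acellular 8, 0.46 in control 16 and 0.41 in PLATE 9, with the lowest values in control 9 (-0.64) and sham 14 (-0.46). Control 25 and PLATE 1, both high for the nuclear part, were at 0.12 and 0.04 for the mitochondrial part. Control 2 held the highest level of all 13 mitochondrial and of 30 of 41 nuclear genes, while acellular 6 held the lowest level of 20 nuclear genes and of 0 mitochondrial genes. These are CPM levels, and the scaling factor of control 2 was 0.592. As a share of counts the nuclear part of control 2 was 0.693%, below control 25 (0.920%) and PLATE 1 (0.817%).

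**Figure D2:**
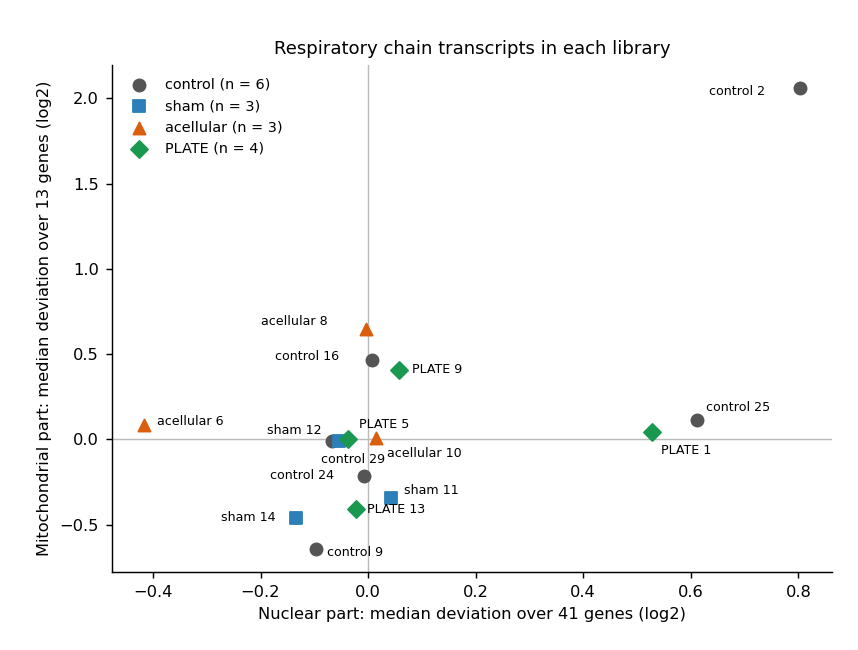
Median deviation of the 41 nuclear genes (x axis, log2) and of the 13 mitochondrial genes (y axis, log2) from each gene's median over 16 libraries; each point is 1 library, marked by group. Control 2, whose scaling factor was 0.592, is alone at the upper right (0.80 and 2.06). Control 25 and PLATE 1 are high for the nuclear part alone, and acellular 6 is low for it (-0.42).

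No member passed the threshold in any comparison. The quasi-likelihood test of edgeR, adjusted over all 10942 genes by the Benjamini-Hochberg method, called 0 of 54 members in each of the 6 pairs of groups and in the joint test of the 4 groups, where it called 0% of all genes. DESeq2 and limma voom called 0 members in the 6 pairs as well. Over all genes DESeq2 called 17 in acellular against control (0.155%), 14 in PLATE against sham (0.128%), 1 each in the other pairs with acellular (0.00914%) and 0 in the remaining pairs. Voom called 72 in acellular against sham (0.658%) and 0 in the other 5 pairs. In the joint test DESeq2 and voom called 0 members as well. In the joint test 1 member had an unadjusted p under 0.05, ND6 (adjusted p = 0.901 by edgeR), against 4.80% of all genes. Fold changes below are therefore values, and their standard errors were wide, with a median of 0.23 to 0.29 (log2) over the nuclear part and 0.48 to 0.60 over the mitochondrial part.

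Between sham and control, 37 of 41 nuclear genes and 13 of 13 mitochondrial genes had lower fitted levels in sham, where 57.9% of all genes did and 42.1% were higher. The median log2 difference was -0.32 for the nuclear part and -0.77 for the mitochondrial part, beside -0.06 for all genes. At an unadjusted p under 0.05, edgeR had 1 nuclear gene and 2 mitochondrial genes lower (1.76% of all genes) and 0 higher (1.22%), DESeq2 had 1 and 5 in all, beside 4.28% of all genes in either direction, and voom 3 and 4, beside 10.3%. Of all members, NDUFB8 of complex I was the 1 gene whose groups did not overlap (1.79% of all genes were lower and 1.90% higher without overlap). Without control 2 the medians were -0.16 and -0.20.

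Between acellular and control, 39 of 41 nuclear genes and 13 of 13 mitochondrial genes had lower fitted levels in acellular, beside 54.2% of all genes. The median log2 difference was -0.38 for the nuclear part and -0.24 for the mitochondrial part, beside -0.03 for all genes. At an unadjusted p under 0.05, edgeR and DESeq2 each had 6 nuclear genes and 0 mitochondrial genes, all lower in edgeR (4.22% of all genes, with 1.77% higher), and voom had 4 and 1. In either direction DESeq2 had 7.30% of all genes and voom 15.2%. The count of 6 in edgeR was 0 without acellular 6, 1 without control 2, control 25 or sham 11 or with the compared groups alone, 2 without acellular 8, and 3 without sham 12, PLATE 9 or PLATE 13 or with DESeq2 size factors. The groups did not overlap for NDUFB2 alone (1.02% of all genes lower, 0.704% higher). The mitochondrial direction was not stable: its median was 0.32 without control 2, with 11 of 13 genes higher, and 0.03 with libraries scaled by size alone. It was -0.60 without acellular 8, -0.41 without control 9, -0.39 without control 24 and -0.12 without acellular 6. The nuclear median was -0.20 without control 2.

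Between PLATE and control, 34 of 41 nuclear genes and 13 of 13 mitochondrial genes had lower fitted levels in PLATE, beside 52.3% of all genes, with 47.7% higher. The median log2 difference was -0.10 for the nuclear part and -0.57 for the mitochondrial part, beside -0.01 for all genes. At an unadjusted p under 0.05, edgeR had 1 nuclear and 1 mitochondrial gene lower (1.09% of all genes) and 0 higher (3.30%), DESeq2 had 1 and 2, beside 5.35% of all genes in either direction, and voom 1 and 2, beside 4.90%. No member's groups stood apart, against 0.0914% of all genes lower and 0.0274% higher without overlap. Both medians rested on single libraries. Without control 2 the nuclear median was 0.04 and the mitochondrial median 0.005. Without PLATE 1 the nuclear median was -0.27 with all 41 genes lower, and without control 25 it was -0.003. It was -0.02 without PLATE 5, -0.06 without PLATE 9 or PLATE 13, and -0.14 to -0.16 without control 9, 16, 24 or 29.

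Between acellular and sham the medians of the 2 parts had opposite signs, a difference that was not tested. All 13 mitochondrial genes had higher fitted levels in acellular (median log2 difference 0.56), whereas 17 nuclear genes were higher and 24 lower (median -0.06). Over all genes 52.2% were higher and 47.8% lower, with a median of 0.02. At an unadjusted p under 0.05, edgeR and DESeq2 each had 1 nuclear gene, lower in edgeR (3.11% of all genes), and 0 mitochondrial genes, and voom had 6 of each part. In either direction DESeq2 had 6.47% of all genes and voom 24.2%, so the 6 of 41 nuclear genes in voom stood below its share of all genes. The 6 of 13 mitochondrial genes in voom stood above that share, where edgeR and DESeq2 had 0. Without overlap, 3 mitochondrial genes (ND2, CYTB and COX3) and 2 nuclear genes (NDUFB5 and NDUFS4) were higher, where 7.82% of all genes were. Without overlap on the lower side were 7 nuclear genes (NDUFA7, NDUFA11, NDUFB2, NDUFB3, UQCRQ, COX4I2 and NDUFA4L2), where 10.5% of all genes were. The mitochondrial median was 0.27 without acellular 8. The nuclear median turned to 0.06 without acellular 6 and to 0.01 without sham 11, and was -0.15 without acellular 8 and -0.09 without sham 14.

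Between PLATE and sham, 37 of 41 nuclear and 11 of 13 mitochondrial genes had higher fitted levels in PLATE, beside 52.6% of all genes, at median log2 differences of 0.20 and 0.31. At an unadjusted p under 0.05, edgeR had 0 members, where 5.85% of all genes were higher and 1.65% lower, and DESeq2 and voom had 1 nuclear gene each, beside 9.18% and 15.2% of all genes in either direction. NDUFB11 of complex I and ATP5PD of complex V were higher without overlap, as were 7.91% of all genes, and 6.95% were lower. Without PLATE 1 the nuclear median was 0.01. The mitochondrial median was 0.13 without PLATE 9 and 0.21 without sham 14.

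Between the graft types the medians of the parts again had opposite signs, and this was not tested either. In PLATE, 39 of 41 nuclear genes had higher fitted levels than in acellular (median log2 difference 0.26, beside 52.4% and 0.02 over all genes), and 13 of 13 mitochondrial genes had lower ones (median -0.32, beside 47.6% of all genes). At an unadjusted p under 0.05, edgeR and DESeq2 each had 2 nuclear genes, higher in edgeR (3.61% of all genes, with 1.10% lower), and 0 mitochondrial genes, and voom had 2 and 3. In either direction DESeq2 had 5.85% of all genes and voom 10.6%. NDUFA4L2, UQCRQ and ATP5MC1 were higher without overlap, as were 3.27% of all genes, and 1.70% were lower. The nuclear median was 0.07 without PLATE 1 and 0.13 without acellular 6. The mitochondrial median was 0.03 without acellular 8 and -0.15 without PLATE 13. The 3 comparisons with control share its libraries, and the comparisons among the operated groups share theirs, so the 6 sets of values are not independent. With 1 library left out at a time, the edgeR count of nuclear genes at an unadjusted p under 0.05 reached 0 in each comparison with control and at most 3 (sham), 9 (acellular) and 2 (PLATE), and that of mitochondrial genes likewise reached 0 and at most 6, 1 and 3. In the 3 comparisons among the operated groups, the nuclear count ran from 0 to at most 4 and the mitochondrial count from 0 to at most 1.

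**Figure D3:**
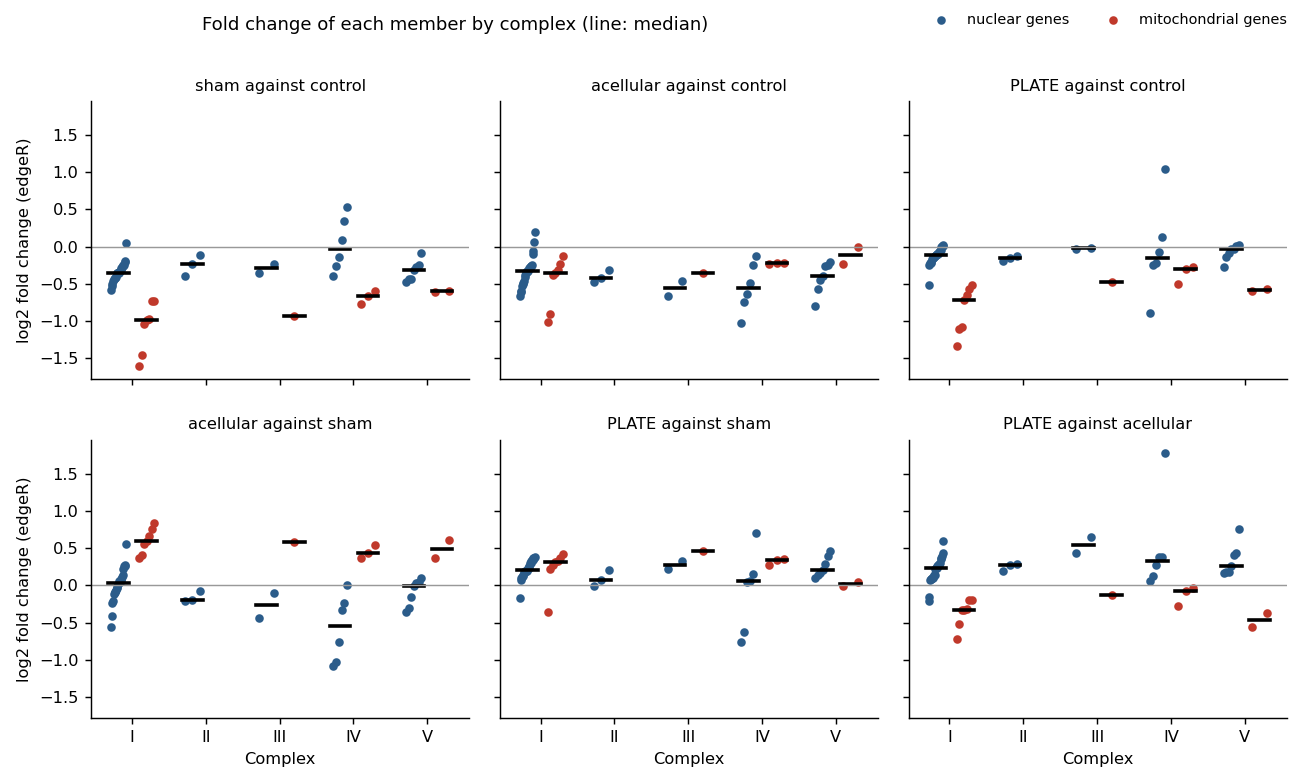
Log2 fold change (y axis, edgeR) of each of the 54 members in the 6 pairs of groups, by complex (x axis) and part (blue nuclear, red mitochondrial); black lines are medians. In sham against control all 13 red points lie below 0, in acellular against sham all 13 lie above it, and in PLATE against acellular all 13 lie below it with 39 of 41 blue points above.

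Complex I takes electrons from NADH and is the largest of the complexes. Its 7 mitochondrial subunits had medians of -0.99 in sham, -0.35 in acellular and -0.71 in PLATE against control (log2), and its 23 nuclear subunits -0.35, -0.33 and -0.11. ND6, a membrane subunit, was at 1084 CPM (lowest), 2286 CPM (median) and 9477 CPM (highest) in control, at 1088, 1394 and 834 CPM in sham 11, 12 and 14, at 1789, 2078 and 1130 CPM in acellular 6, 8 and 10, and at 928, 1639, 2299 and 480 CPM in PLATE 1, 5, 9 and 13. Control 2 set the top of the control range, and the other groups overlapped the controls. The log2 difference was -1.61 ± 0.65 (SE) in sham against control (edgeR adjusted p = 0.963) and -0.95 without control 2. In PLATE against control it was -1.33 ± 0.57 (edgeR adjusted p = 0.998) and -0.69 without control 2.

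ND5, a proton-pumping subunit of the membrane arm, ran from 2800 to 23346 CPM in control with a median of 6117 CPM. It was at 2953, 4157 and 2482 CPM in sham 11, 12 and 14, at 4336, 5663 and 4148 CPM in acellular 6, 8 and 10, and at 2335, 5917, 6394 and 1787 CPM in PLATE 1, 5, 9 and 13. PLATE 1 and PLATE 13 were the lowest of all 16 libraries. In sham against control the log2 difference was -1.46 ± 0.61 (edgeR adjusted p = 0.963), and -0.88 without control 2. In PLATE against control it was -1.10 ± 0.54 (edgeR adjusted p = 0.998), and -0.53 without control 2. ND6 is read from the opposite strand to ND5, and the strand setting of the counting is not given in the sources used here, so reads of either strand cannot be told apart.

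ND1, ND2 and ND3 are further membrane subunits of complex I. ND1 ran from 2036 to 14620 CPM in control with a median of 3884 CPM, and averaged 2728 ± 476 CPM in sham, 4300 ± 1166 CPM in acellular and 3418 ± 406 CPM in PLATE. Its log2 difference in sham against control was -1.04 ± 0.50 (edgeR adjusted p = 0.963), and -0.47 without control 2. ND2 and ND3 had log2 differences of -0.96 ± 0.52 and -0.99 ± 0.55 in the same comparison, and -0.39 and -0.32 without control 2. In acellular against control ND1, ND2 and ND3 were at -0.38, -0.13 and -0.24, and at 0.20, 0.46 and 0.45 without control 2. All 3 were highest in control 2 and lowest in control 9.

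NDUFV2, an iron-sulphur subunit of the NADH-binding arm, was the nuclear gene of complex I with the smallest unadjusted p against control in all 3 other groups. It ran from 130.9 to 343.7 CPM in control (median 185.2 CPM), was at 139.7, 145.8 and 141.3 CPM in sham 11, 12 and 14, at 119.5, 154.4 and 145.3 CPM in acellular 6, 8 and 10, and at 179.6, 154.8, 142.9 and 119.3 CPM in PLATE 1, 5, 9 and 13. The operated libraries lay in the lower part of the control range or below it. The log2 difference from control was -0.58 ± 0.26 in sham (edgeR adjusted p = 0.963), -0.60 ± 0.26 in acellular (adjusted p = 0.827) and -0.51 ± 0.24 in PLATE (adjusted p = 0.998). Without control 2 it was -0.40 in acellular and -0.33 in PLATE.

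Of the other nuclear subunits of complex I, NDUFS1, the large iron-sulphur subunit, averaged 172 ± 29.8 CPM in control, 134 ± 9.70 CPM in sham, 161 ± 56.9 CPM in acellular and 174 ± 29.4 CPM in PLATE. NDUFB3, an accessory subunit, averaged 87.1 ± 29.3 CPM in control and 57.5 ± 8.71 CPM in acellular, a log2 difference of -0.60 ± 0.26 (edgeR adjusted p = 0.827). NDUFA11, a membrane-arm subunit, was at 19.0, 21.2 and 15.5 CPM in sham and 13.2, 13.4 and 11.2 CPM in acellular. Its groups did not overlap, and the log2 difference was -0.56 ± 0.32 (edgeR adjusted p = 0.902). NDUFS1 was lowest of all libraries in acellular 6, at 95.7 CPM.

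Complex II, succinate dehydrogenase, links the chain to the tricarboxylic acid cycle. Its flavoprotein SDHA varied least within groups of all 41 nuclear genes, with an SD of 0.23 on the log2 scale beside a median of 0.37 for the nuclear part. SDHA ran from 314 to 539 CPM in control, with 386, 335 and 384 CPM in sham, 271, 325 and 361 CPM in acellular and 357, 381, 381 and 343 CPM in PLATE. Acellular 6 was the lowest library, and the groups overlapped. In acellular against control the log2 differences were -0.32 ± 0.18 for SDHA, -0.42 ± 0.22 for SDHB, the iron-sulphur subunit, and -0.47 ± 0.25 for SDHC, a membrane anchor (edgeR adjusted p = 0.863, 0.848 and 0.857).

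Complex III passes electrons from ubiquinol to cytochrome c. CYTB, its mitochondrial subunit, averaged 16350 ± 11910 CPM in control, 8560 ± 1066 CPM in sham, 12810 ± 2506 CPM in acellular and 11730 ± 2115 CPM in PLATE. UQCRC1, a core subunit, was lowest in acellular 6 at 72.3 CPM and highest in control 2 at 234 CPM. UQCRQ, a small accessory subunit, ran from 88.3 to 173 CPM in control with a median of 121 CPM, was at 117, 103.3 and 97.8 CPM in sham, 72.7, 71.4 and 91.7 CPM in acellular 6, 8 and 10, and 182, 93.9, 101.6 and 115.8 CPM in PLATE 1, 5, 9 and 13. All 3 acellular libraries lay below every sham and PLATE library, and overlapped the controls. The UQCRQ log2 difference was -0.66 ± 0.25 in acellular against control (edgeR adjusted p = 0.827) and 0.65 ± 0.26 in PLATE against acellular (adjusted p = 0.875), the latter 0.40 without PLATE 1.

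Complex IV, cytochrome c oxidase, reduces oxygen. Its catalytic subunit COX1 had the most counts of the mitochondrial part and ran from 22742 CPM in control 9 to 111810 CPM in control 2. It averaged 31920 ± 4950 CPM in sham, 41110 ± 9120 CPM in acellular and 40210 ± 7237 CPM in PLATE. COX1, COX2 and COX3 had log2 differences of -0.60 ± 0.48, -0.77 ± 0.54 and -0.66 ± 0.48 in sham against control, and -0.16, -0.13 and -0.12 without control 2. In PLATE against acellular they were at -0.03, -0.28 and -0.07. COX4I1, the common form of subunit 4, averaged 485 ± 160 CPM in control, 441 ± 9.25 CPM in sham, 443 ± 101.9 CPM in acellular and 461 ± 84.8 CPM in PLATE, and its fold change was within its error in each comparison.

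The tissue-restricted subunits of complex IV had low levels, and each was highest in other libraries. COX4I2, the form of subunit 4 known from lung and smooth muscle, was at 3.17, 4.21 and 2.31 CPM in sham 11, 12 and 14 and at 1.28, 1.95 and 1.53 CPM in acellular 6, 8 and 10. It ran from 1.504 to 3.33 CPM in control and from 1.20 to 2.65 CPM in PLATE. Sham stood wholly above acellular, with a log2 difference of -1.03 ± 0.42 (edgeR adjusted p = 0.902). Summed smooth muscle markers were also wholly higher in sham than in acellular, and their part in this difference was not tested. COX4I2 in PLATE against sham was -0.76 ± 0.38 (edgeR adjusted p = 0.657), with overlap.

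COX7A1, the heart and skeletal muscle form of subunit 7a, was highest in control 2 (20.7 CPM), control 25 (13.4 CPM) and control 16 (10.3 CPM) and lowest in control 9 (2.44 CPM). CKM, the muscle creatine kinase, was highest in the same 3 libraries, at 231, 148.5 and 103.3 CPM, and lowest in control 9 at 1.56 CPM. The other skeletal muscle markers did not all share this order. In control 2, 25, 16 and 9, ACTA1 was at 16.8, 7.67, 1.90 and 0.280 CPM. CASQ1 was at 15.2, 19.4, 6.14 and 0.400 CPM there, and MB at 6.12, 1.04, 1.10 and 0.400 CPM. TNNT3 was at 1.44, 66.5, 0.177 and 0.120 CPM, and MYH7 at 0.180, 2.64, 1.59 and 2.60 CPM. Summed skeletal muscle markers (6 of 10 measured) were 5.36 to 271 CPM in control, 29.9 to 64.1 CPM in sham, 6.31 to 47.6 CPM in acellular and 7.79 to 61.3 CPM in PLATE, and TNNT3 was at 0 in acellular 8. The sum includes CKM, which gave 231 of the 271 CPM in control 2. Against control the COX7A1 log2 difference was -1.02 ± 0.54 in acellular (edgeR adjusted p = 0.856) and -0.89 ± 0.48 in PLATE (adjusted p = 0.998). The part of muscle content in these values was not tested.

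NDUFA4L2, a relative of the complex IV subunit NDUFA4 and known as a hypoxia-responsive gene, was dominated by 1 library. It was at 15.1 CPM in PLATE 1 (233 counts) and at 2.10, 2.04 and 3.39 CPM in PLATE 5, 9 and 13. It was at 3.96, 3.93 and 2.51 CPM in sham, at 1.14, 1.75 and 2.02 CPM in acellular, and at 1.08 CPM (12 counts) in control 2, the lowest library of all 16. PLATE lay above acellular in every library, narrowly so for PLATE 9 against acellular 10. The log2 difference was 1.78 ± 0.66 (edgeR adjusted p = 0.875) and 0.62 without PLATE 1. That library had the highest marker sums for neutrophils and for several other cell types. Acellular lay wholly below sham, at -1.08 ± 0.68 (edgeR adjusted p = 0.902).

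**Figure D4:**
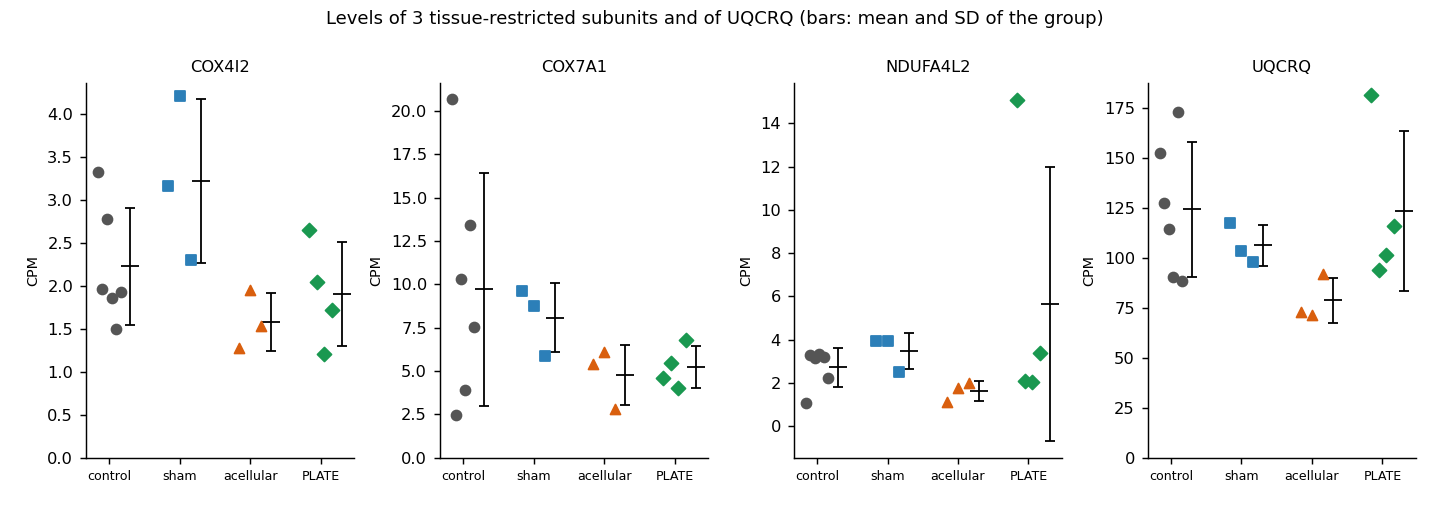
CPM (y axis) of COX4I2, COX7A1, NDUFA4L2 and UQCRQ by group; each point is a library and bars give the mean and SD (n = 6, 3, 3 and 4). Sham lies above acellular for COX4I2, control 2 is highest for COX7A1 at 20.7 CPM, and PLATE 1 stands alone for NDUFA4L2 at 15.1 CPM.

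Complex V makes ATP. ATP5F1B, the catalytic beta subunit and the nuclear gene with the most counts, was at 408 CPM in acellular 6, where the next lowest library was at 659 CPM. It averaged 1138 ± 445 CPM in control, 941 ± 157 CPM in sham, 765 ± 313 CPM in acellular and 1038 ± 224 CPM in PLATE. ATP5F1B per 100 counts of its partner ATP5F1C, the gamma subunit, was 122 in acellular 6 and 199 to 302 in the other 15 libraries. ATP5MC1, which makes the c-ring of the rotor, was at 32.6, 59.1 and 69.2 CPM in acellular 6, 8 and 10 and at 142, 72.1, 74.4 and 72.8 CPM in PLATE 1, 5, 9 and 13. PLATE lay wholly above acellular, with a log2 difference of 0.75 ± 0.38 (edgeR adjusted p = 0.875), 0.45 without PLATE 1 and 0.50 without acellular 6. ATP5MC3, another c-ring gene, had a log2 difference of 0.46 ± 0.32 in PLATE against sham (edgeR adjusted p = 0.715), and 0.22 without PLATE 1.

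ATP6 and ATP8 are the mitochondrial subunits of complex V. Their log2 differences against control were -0.59 ± 0.57 and -0.61 ± 0.64 in sham. In acellular they were -0.23 ± 0.56 and -0.001 ± 0.62, and in PLATE -0.60 ± 0.52 and -0.57 ± 0.58. Without control 2 each changed sign, to 0.06 and 0.31 in sham, 0.44 and 0.93 in acellular, and 0.04 and 0.33 in PLATE. ATP6 and ATP8 share an RNA and overlap, as do ND4L and ND4. How reads in the overlaps were assigned is not given in the sources used here.

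The mitochondrial genes did not keep the same proportions in every library. ND4L, a small membrane subunit of complex I, had 6 counts in control 24 (0.279 CPM; exact Poisson 95% interval 2.2 to 13.1 counts), 39 counts in acellular 6 (1.78 CPM), 46 counts in PLATE 1 (2.98 CPM) and 543 counts in PLATE 13 (26.7 CPM). In the other 12 libraries it was at 459 to 3122 CPM. These 4 libraries belong to 3 groups, and the SE of ND4L was 1.56 to 1.91 (log2) in every comparison. Its neighbour ND4 was at 7144 to 9041 CPM in the same 4 libraries, so ND4L per 1000 ND4 counts was 0.0357, 0.228, 0.329 and 3.74 there and 59.5 to 86.0 in the other 12.

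The same 4 libraries stood low in other ratios between mitochondrial genes. ATP6 per 100 COX3 counts was 43.5 in control 24, 47.0 in acellular 6, 44.9 in PLATE 1 and 44.0 in PLATE 13, and 61.9 to 87.3 in the other 12. ND4 per 100 COX3 was 51.6, 44.9, 42.5 and 46.8 in that order, and 57.02 to 74.3 elsewhere. ND5 per 100 CYTB set apart PLATE 1 (19.0) and PLATE 13 (18.5) alone, with 32.2 to 59.5 in the other 14 libraries. The ratios compare counts within a library, so library scaling does not enter. Leaving ND4L out of the mitochondrial part kept each median within 0.0835 of its value.

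**Figure D5:**
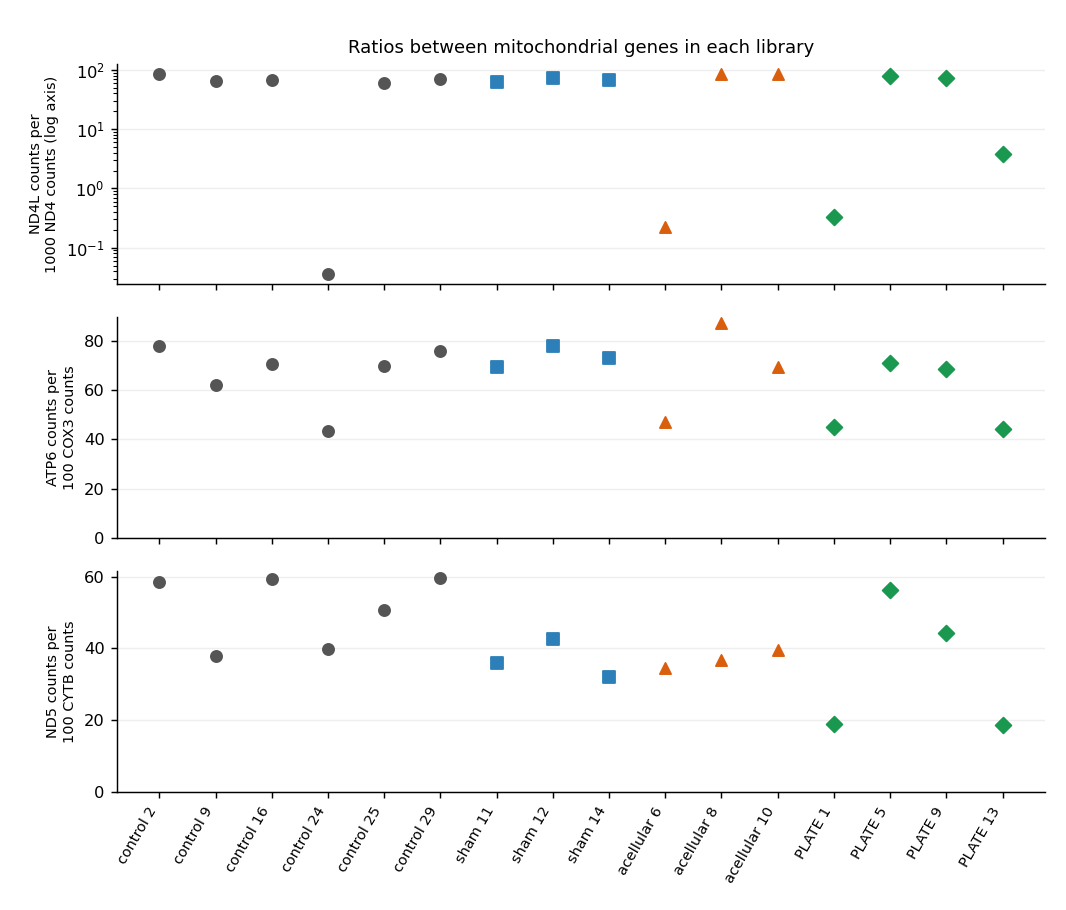
Counts of ND4L per 1000 of ND4 (top, log axis), of ATP6 per 100 of COX3 (middle) and of ND5 per 100 of CYTB (bottom) in each of the 16 libraries, marked by group as grey control, blue sham, orange acellular and green PLATE. Control 24, acellular 6, PLATE 1 and PLATE 13 are lowest in the top and middle panels, and PLATE 1 and PLATE 13 in the bottom panel.

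Genes that build or serve the chain were read from lists. Of 220 entries in 14 lists, 168 were tested, and edgeR, DESeq2 and voom each called 0 in every pair of groups. Counted at an unadjusted p under 0.05 in either direction, edgeR had 6 of them in sham, 12 in acellular and 1 in PLATE against control, beside 2.98%, 6.00% and 4.39% of all genes. It had 3 in acellular against sham (4.87% of all genes), 9 in PLATE against sham (7.50%) and 3 in PLATE against acellular (4.71%). DESeq2 had 1 to 13 and voom 8 to 23. The highest count of DESeq2 was in acellular against control (7.30% of all genes) and that of voom in acellular against sham (24.2%), and both were lowest in PLATE against control (5.35% and 4.90%). The medians of 12 of the 13 lists with a tested gene were below 0 in sham and in acellular against control, and those of 8 in PLATE against control. Over all genes, 57.9%, 54.2% and 52.3% were lower in sham, acellular and PLATE against control. The mitochondrial ribosome, which translates the mitochondrial genes, had 3 of 50 genes higher and 47 lower in sham against control (median -0.24), 6 and 44 in acellular (median -0.27), and 12 and 38 in PLATE (median -0.09). The tricarboxylic acid cycle, which feeds complexes I and II, had 2 higher and 14 lower, 1 and 15, and 1 and 15 in the same order. Assembly factors of complex I numbered 5 higher and 9 lower in sham against control, 2 and 12 in acellular and 4 and 10 in PLATE. Those of complex IV numbered 2 and 15, 7 and 10, and 11 and 6 in that order. Genes of mitochondrial DNA replication numbered 2 and 6, 3 and 5, and 7 and 1, and nuclear regulators 8 and 5, 6 and 7, and 7 and 6. In PLATE against acellular, 37 of 50 ribosome genes and 13 of 16 cycle genes were higher, at medians of 0.15 and 0.17, beside 52.4% of all genes. The lists were not read with control 2, PLATE 1 or another library left out.

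Regulators of the 2 parts did not pass the threshold either. TFAM, which packages mitochondrial DNA and serves its transcription, averaged 29.8 ± 4.57 CPM in control, 33.6 ± 4.68 CPM in sham, 40.3 ± 10.7 CPM in acellular and 29.9 ± 2.26 CPM in PLATE. Its log2 difference was 0.43 ± 0.18 in acellular against control (edgeR adjusted p = 0.827) and -0.43 ± 0.20 in PLATE against acellular (adjusted p = 0.875). LRPPRC, which stabilises mitochondrial RNA, averaged 253 ± 42.6, 253 ± 5.36, 286 ± 59.3 and 242 ± 34.9 CPM in control, sham, acellular and PLATE. PPARGC1A, NRF1 and GABPA, transcription regulators of nuclear chain genes, had an edgeR adjusted p of at least 0.759 in each of the 6 comparisons.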

How the data were processed

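Poly(A) RNA of the rabbit vagina was sequenced in 16 libraries. The authors deposited 1 table of raw read counts per gene symbol. Per the submitters' processing notes, FastQC, HISAT2 2.2.1 and featureCounts were used; build, annotation and strand setting are not given in the sources used here. Columns were matched by the trailing sample index. Counts without a gene name (22.9 to 28.5% of a library) were left out. Labels give an animal number per library, so replicates are animals. Same-group libraries differed well beyond sampling noise (chi-square per degree of freedom at least 42.3).

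Counts were tested with edgeR 4.0.16 (R 4.3.3): filterByExpr, trimmed mean of M values, quasi-likelihood F test, 1 mean per group over 16 libraries, 12 residual degrees of freedom, Benjamini-Hochberg over 10942 genes, threshold 0.05. The common biological coefficient of variation was 0.44. SE is the log2 fold change divided by the root of F, and log2 CPM used a prior count of 2. The test was also run on counts simulated from the fitted dispersions, without a library that departs as control 2 does. The outcome of that run is not reported here. Groups do not overlap where every library of one exceeds every library of the other in CPM.

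Members and lists were chosen with earlier results of these data known. Named genes are all mitochondrial members, the 3 members with the smallest p per comparison, the tissue-restricted subunits and their counterparts, SDHA to SDHD, core subunits, the gene with the most counts per complex, and fixed regulators (CYC1, CYCS, POLRMT and ESRRA were not analysed here). Further members were named after their values were seen: those without overlap, and ATP5F1C and CKM where libraries departed. The values of 1 gene that the rule names are not reported here.

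Alternatives were DESeq2 size factors and the DESeq2 1.42.0 test, limma 3.58.1 voom with quality weights, scaling without the mitochondrial part, unnamed counts in the library size, no filter, the compared groups alone, and libraries left out. Chosen after seeing the data were library size alone, and leaving out ND4L or ND4L, ND4 and ATP6.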

Additional observations from a re-analysis of the deposited data

Results flagged for a closer look

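In groups of 4 to 6 libraries, the highest or lowest library stood far from its neighbours in 11 cases among reported genes and shares. Chance alone flags about 1 in 20 of the groups looked at, so several such cases are expected by chance. Whether 11 is more than chance gives was not tested. In control, ND4L was at 0.2792 CPM in control 24, COX2 at 59740 CPM, COX3 at 57880 CPM and NDUFA4L2 at 1.08 CPM in control 2, and the nuclear share of counts was 0.9202% in control 25. In PLATE, PLATE 1 was far above the other 3 libraries for ATP5MC1 (142.5 CPM), ATP5PD (500.2 CPM), NDUFA12 (122.3 CPM), NDUFB11 (112.6 CPM), NDUFB3 (106.8 CPM) and NDUFS3 (149.3 CPM). PLATE 1 gave 6 of the 11 and control 2 gave 3, so cases that share a library are not separate from each other.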

How the results depend on the processing

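No member was called in any of 25 alternative settings. The mean mitochondrial to nuclear ratio was 21.0 in control, 16.6 in sham, 23.6 in acellular and 17.9 in PLATE. Without the genes with the most counts (COX1 and ATP5F1B) it was 17.6, 13.4, 19.1 and 14.3 in that order. Without ND4L, ND4 and ATP6 it was 17.2, 13.3, 19.3 and 14.8. Scaling by library size alone moved the median of all genes by 0.11 in sham and in acellular against control; the nuclear medians were then -0.14, -0.19 and -0.02 in sham, acellular and PLATE against control, and the mitochondrial medians -0.43, 0.03 and -0.31. With voom the nuclear medians against control were -0.17, -0.15 and -0.11 in the same order and the mitochondrial -0.40, 0.25 and -0.35. With voom, too, the nuclear median was 0.01 in acellular against sham, 0.04 in PLATE against sham and 0.03 in PLATE against acellular, and the mitochondrial 0.65, 0.07 and -0.66. Other rescaling moved the median of all genes by at most 0.02. Without control 2, control 9 and PLATE 1 together, the mitochondrial medians against control were -0.30 in sham, 0.23 in acellular and -0.08 in PLATE, and the nuclear medians of PLATE were -0.19 against control, -0.0005 against sham and 0.05 against acellular. No paired analysis was possible because the groups share only the number 9, in control and PLATE. Counting error is largest for NDUFA4L2 and COX4I2 among the nuclear genes, whose lowest counts were 12 and 23.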
